A study of Ananas comosus with 78 samples.

Results

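The 200 genes described here were those with the strongest ethephon-related rises at the pineapple leaf base at the 6 h sampling, among genes that were not called as changed at the stem apex at 6 h. They were chosen from the values themselves. Of 22449 genes with at least 1 count in the 6 leaf base libraries of 6 h, 3167 were higher in ethephon at an adjusted p under 0.05 and were not differentially expressed (DE, adjusted p under 0.05 and at least 2-fold) at the apex at 6 h. The 200 with the highest leaf base log2 fold change were taken, out of 27024 genes in the files. The 6 h values below therefore describe the choice and carry no test, while the later leaf base samplings, the later apex samplings and the water controls of both tissues played no part in it.

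RNA was sequenced from field-grown plants of 1 pineapple hybrid (*Ananas comosus*), labelled MD1 in the sample characteristics and MD2 in the growth protocol. Treated plants received 50 mg of ethephon in 10 ml of water at the plant center, and control plants received 10 ml of water alone. Basal tissue of the "D" leaf, the most recently matured leaf, was taken at 6 h and on days 1 to 4, and stem apices at 6 h, on days 1 to 6 and on day 8. Each of the 26 conditions had 3 libraries, 78 in all, and each library was made from the pooled tissue of 3 plants. The labels number the samplings only, 1 to 5 at the leaf base and 1 to 8 at the apex, and the times follow the order given in the study's Results. By the study's methods the plot held 3 field replications, each with both treatments, and 3 plants came from each replication at every sampling. The labels do not say that the library numbers follow the replications, and the p-values measure the spread between these pools of 1 plot. The methods also give the first sampling another handling, though plants of all samplings were harvested at a similar time of the morning. Plants of the first sampling were cut soon after treatment on the same morning and chilled. Their dissection ended in the early afternoon, whereas later samples were finished by noon. The 6 h thus count to the end of dissection, and the plants were cut well before that.

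Ethephon breaks down in plant tissue and releases ethylene, and it is applied to pineapple to force flowering. The apex is the site of that transition, whereas the base of a monocot leaf is where its youngest cells lie, above an intercalary zone of division. Ethylene is perceived by receptors in the endoplasmic reticulum membrane, and its signal reaches the nucleus through EIN2 and EIN3, which in turn act on ethylene response factors of the AP2/ERTF family. In bulk tissue a lower count can come from fewer cells of a type or from less RNA per cell, and these cannot be told apart.

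At 6 h, log2 fold changes of the 200 genes ran from 2.95 to 6.64, with a median of 3.38, against a median of 0.02 over all genes tested. The threshold was not a natural break, since the last genes inside it were Aco010043 at 2.95 and Aco016988 at 2.95 and the first outside were Aco000578 at 2.95 and Aco001176 at 2.94. The call of Aco010043 was lost on leaving out any of 4 single libraries (2.57 to 2.99). Of all genes tested, 8.59% were up-regulated and 11% down-regulated by ethephon in these leaf bases. In every one of the 200 the 3 ethephon libraries lay above the 3 water libraries, which the choice itself makes likely.

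Many of the genes were close to silent in the water leaf bases. In 83 of them no water library of 6 h held more than 3 counts, and in 19 all 3 held none, so their fold change was only bounded from below. These bounds ran from 0.608 to 17.1-fold, with a median of 1.44-fold, and a bound under 1 leaves the fold undetermined. With those genes set at their bound the median log2 fold change of the 200 was 3.03. The counts behind a gene, summed over the 6 libraries, ran from 13 to 6720 with a median of 154.5.

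The gene with the largest fold was Aco011296, on linkage group 1 between 12653601 and 12655329 on the minus strand of the Acomosus_321_v3 assembly, for which the sources used here give no function. It had 27.4, 17.5 and 8.74 CPM (read counts scaled to the size of the library) in the ethephon libraries, against 0, 0 and 0.3 CPM in the water libraries of 6 h. This was at least 17.1-fold higher in ethephon. Across the 12 water leaf base libraries of days 1 to 4 it lay between 0 and 2.78 CPM, below every ethephon library of 6 h. Aco012487 had 5.76, 4.31 and 4.37 CPM in ethephon and 0, 0 and 0.15 CPM in water, at least 4.62-fold higher in ethephon, but its later water libraries lay at 1.84 to 8.54 CPM, a range that holds the ethephon values.

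The other 10 genes of the 12 largest folds were Aco017345, Aco010587, Aco019080, Aco001870, Aco008998, Aco002497, Aco020647, Aco000035, Aco007078 and Aco005701, and none of them had a count in water at 6 h. Their bounds were between 1.13 and 2.11-fold, so their rank rests on small counts. Aco017345 had 41, 3 and 3 counts in ethephon, and Aco008998 had 27, 4 and 1. In both, 1 ethephon library held most of the reads, and without it their log2 fold changes of 4.42 and 4.20 no longer passed the test. The calls of Aco007078, Aco020647, Aco008998 and Aco017345 were also lost without water replicate 3, at log2 fold changes of 5.65 or more.

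The most abundant of the 200, whose direction was likewise fixed by the choice, had a depth that leaves little counting error. Aco012596 had 358, 332 and 311 CPM in ethephon, against 21.5, 13.6 and 31.7 CPM in water. Aco008487 had 401, 253 and 296 CPM in ethephon, against 34.7, 5.56 and 31.2 CPM in water. Aco002498 had 325, 310 and 253 CPM in ethephon, against 41.6, 34.1 and 29.9 CPM in water. In each, the lowest ethephon library was several times the highest water library. Aco009306 averaged 239 ± 29.1 CPM in ethephon and 24.3 ± 17.5 CPM in water, and Aco030321 averaged 189 ± 31.1 CPM in ethephon and 19.6 ± 7.3 CPM in water (SD, n = 3 each).

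**Figure D1:**
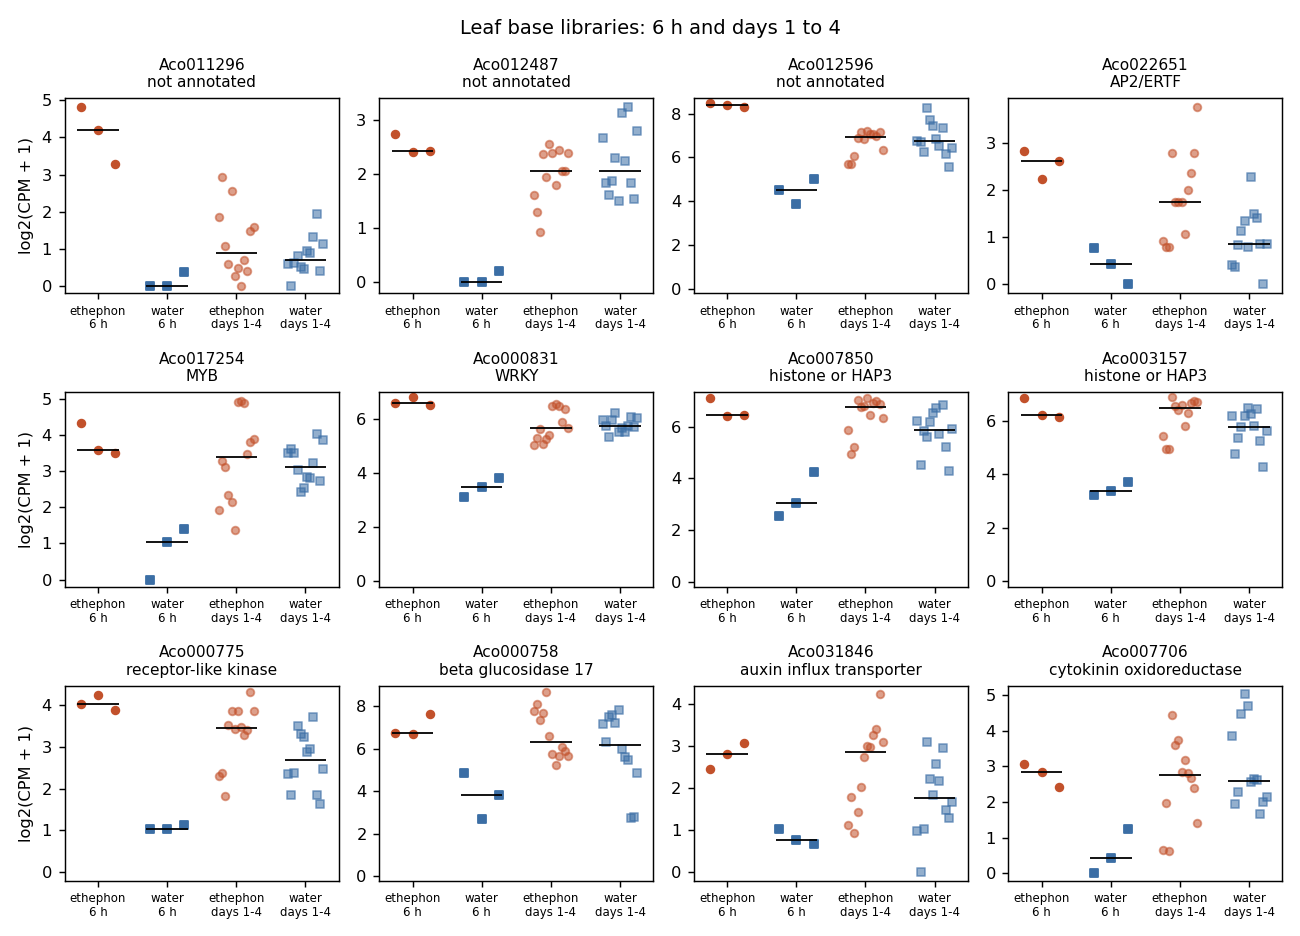
Level of 12 of the genes in each leaf base library, as log2(CPM + 1), for ethephon at 6 h, water at 6 h, ethephon on days 1 to 4 and water on days 1 to 4 (points are libraries, black lines medians). Ethephon at 6 h lay above water at 6 h in each panel. In some panels, among them Aco007706, Aco031846, Aco012487 and Aco000758, it lay inside the range of the later water libraries.

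Set against the later water controls of the same tissue, the low group at 6 h was more often water than the high group was ethephon. On a scale of log2 CPM with a prior count of 0.25, the median of the 200 genes averaged 2.81 over the 3 ethephon libraries of 6 h (2.59 to 3.14) and lay between -1.34 and -0.33 in the 3 water libraries of 6 h. In later water leaf bases it averaged 1.75 on day 1, 2.59 and 2.40 on the following days, and 1.53 on day 4. All 12 later water libraries thus lay above the 3 water libraries of 6 h. The median of all genes tested was between 3.40 and 3.60 in every condition.

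**Figure D2:**
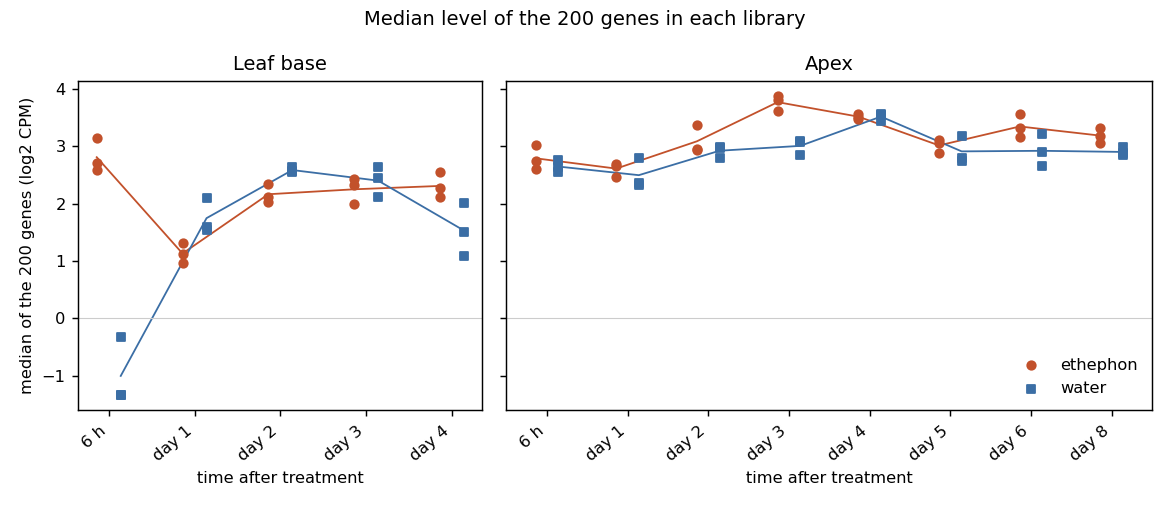
Median log2 CPM of the 200 genes in each of the 78 libraries (prior count 0.25), by sampling time, tissue and treatment. The 3 water leaf base libraries of 6 h lie between -1.34 and -0.33, apart from all other leaf base libraries, and the ethephon leaf base libraries of 6 h between 2.59 and 3.14.

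Counted gene by gene, all 3 water libraries of 6 h lay below all 12 later water libraries in 112 of the 200 genes (56%), against 7.41% of all genes tested and 49.3% of the 1929 genes up-regulated in leaf bases of 6 h. All 3 ethephon libraries of 6 h lay above all 12 later water libraries in 22 genes (11%), against 1.14% of all genes and 6.69% of the up-regulated ones. Both held for 14 genes (0.227% of all genes) and neither for 80 (91.7% of all genes). In 76 genes (38%, against 75.7% of all genes) the 3 ethephon libraries lay inside the range of the later water libraries, as the 3 water libraries of 6 h did in 48 (24%, against 46.3%).

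In size, water at 6 h was below the mean of the later water libraries in 200 of the 200 genes, with a median difference of -2.87 on the log2 CPM scale and a range of -5.58 to -0.20. Over all genes the median was -0.01, and over the 1929 up-regulated genes -1.30. Ethephon at 6 h was above that mean by a median of 0.73, with 7 genes below it and a range of -0.77 to 4.69, against a median of 0.01 over all genes. At the apex the same 200 genes were moved by -0.25 in water at 6 h and by 0.05 in ethephon at 6 h, both against later apex water. These values include the libraries that chose the genes and are a description. The handling of the first sampling and the time since treatment cannot be told apart in the comparison with later water, and what set the water libraries of 6 h apart was not tested.

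**Figure D3:**
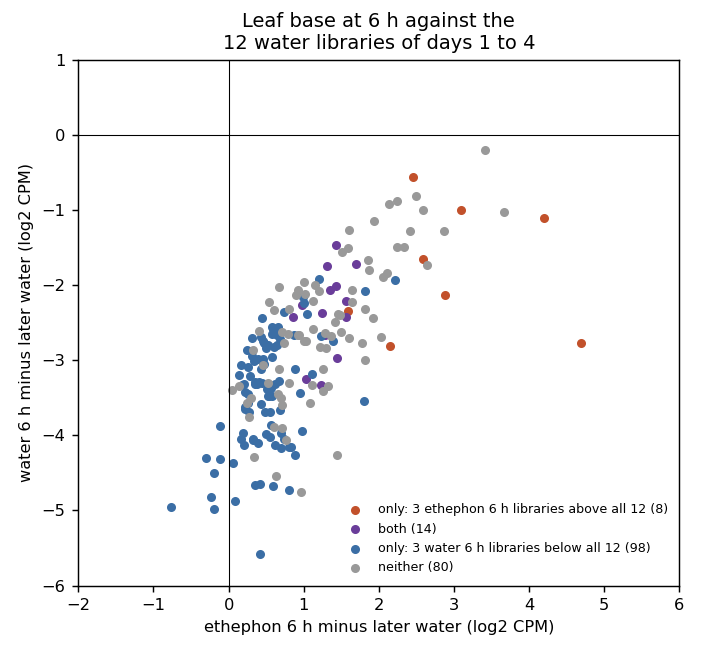
Each point is 1 of the 200 genes, with ethephon at 6 h (horizontal axis) and water at 6 h (vertical axis), both as the difference in mean log2 CPM from the 12 water leaf base libraries of days 1 to 4. On the vertical axis all 200 genes lie below 0 and on the horizontal axis 7 lie left of 0, and the colors separate the 8 genes where only ethephon stood apart from the later water libraries, the 98 where only water did, the 14 where both did and the 80 where neither did.

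The treatments shared lanes at 6 h, and since these libraries chose the genes, the values by lane are a description and do not test lane. On one lane, with 1 ethephon and 1 water library, the median difference of the 200 genes was 3.98 on the log2 CPM scale, and on the other, with 2 ethephon libraries and 1 water library, it was 3.06. The median over all genes was 0 on both. With lane as a term in the fit, 163 of the 200 were still DE. The third water library was deeper than the other water libraries (7763954 counts, against 3296358 and 3316318) and less extreme. It held no count for 34 of the 200 genes, against 77 and 69 in the others, and without it 127 of the 200 would have been chosen.

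Counts per library ran from 1418697 to 13180667 over the series, the lowest in an ethephon apex and the highest in a water apex of day 8. The 9 apex marker genes, among them KNOTTED1-like, WUSCHEL and FLORICAULA/LEAFY homologs, summed to 0.616 to 1.28 CPM in ethephon and 1.04 to 3.12 CPM in water leaf bases of 6 h, with 4 and 3 of the 9 at 0. At the apex of 6 h they summed to 47 to 76.8 CPM in ethephon and 44.4 to 86.2 CPM in water. In sum, apex markers were thus near 0 in the leaf base and were not higher in ethephon. The apex sum in water rested mainly on KNOTTED1-like Aco015873, with 385 counts at 6 h, against 53 for Aco004983. Not each of the 9 marked the apex. WUSCHEL homolog Aco015382 had 12 counts in ethephon and 6 in water leaf bases, against 3 in water apices. The FUL MADS-box gene Aco004839 had 0, 6 and 1 in the same order, and the other FUL gene, Aco012428, had 2, 0 and 24. FLOWERING LOCUS T gene Aco010683 had 0 in each of these groups, and Aco010684 had 0, 2 and 0. The 16 cell cycle and histone genes of the annotation copy, which mark dividing cells and hold none of the 200, summed to 1020 to 1110 CPM in ethephon and 648 to 725 CPM in water leaf bases of 6 h. The later water leaf bases held 719 to 1020 CPM. Of these 16 genes, 6 were up-regulated and 0 down-regulated in leaf bases of 6 h, also on the unadjusted p, against 8.59% and 11% of all genes. Their part in the values of the 200 genes was not tested. Only 1 gene was available for photosynthesis, so the leaf label could not be checked from its own markers.

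At the apex at 6 h the 200 genes had log2 fold changes from -2.39 to 5.51, with a median of 0.25, and 134 were above 0. Absence of a call there does not mean absence of a rise. In 24 genes the apex log2 fold change was at least 1 without passing the test, and in 5 the adjusted p was under 0.05 at less than 2-fold. Of all genes tested at the apex at 6 h, 1.86% were up-regulated and 1.87% down-regulated.

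Functions could be given for few of the 200. A copy of the study's annotation table held 12 of them, 4 as hypothetical proteins, and 11 others are named in the study's text.

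Among the regulators, Aco000831 encodes a WRKY DNA-binding protein, a family known mainly for defense and stress responses. It had 95.2, 112 and 89.4 CPM in ethephon and 7.63, 10.1 and 13.2 CPM in water at 6 h, against 39.4 to 72.3 CPM in the later water libraries. Both groups of 6 h thus lay outside the later range, ethephon above it and water below. On day 3 the leaf base held 88.5, 93.4 and 86.9 CPM in ethephon and 49.2, 44.6 and 51.9 CPM in water, a log2 fold change of 0.86 (SE 0.12, adjusted p = 0.000104) that is under the 2-fold limit. At the apex it was up-regulated on day 3 by 1.58 (SE 0.23, adjusted p = 1.26e-05).

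Aco022651 is an ethylene-responsive factor of the AP2/ERTF family, whose members bind promoters of ethylene-responsive genes. It had 6.14, 3.7 and 5.15 CPM in ethephon and 0.693, 0.347 and 0 CPM in water at 6 h, at least 4.79-fold higher in ethephon. At the leaf base on day 4 it had 4.13, 5.99 and 12.8 CPM in ethephon, against 0.795, 0 and 0.794 CPM in water, a log2 fold change of 3.89 (SE 0.66, adjusted p = 0.00268). At the apex at 6 h it had 0, 0.948 and 2.33 CPM in ethephon and no count in water, which did not pass the test (adjusted p = 0.125). Apices of days 4, 5 and 6 had it up-regulated, by at least 4.85-fold on day 4 and at least 5.98-fold on day 5. On day 4 at the leaf base the call was lost without water replicate 2, at a log2 fold change of 3.24. Of the 39 AP2/ERTF genes named in the study, 6 were up-regulated and 11 down-regulated in leaf bases of 6 h, against 8.59% and 11% of all genes, with a median of -0.12. In day 1 apices 21 were up-regulated and 0 down-regulated (22 and 0 on the unadjusted p), against 7.7% and 3.63% of all genes. The study drew this list, like its chromatin, auxin and cytokinin lists, on these same samples, so none gives independent evidence of direction.

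Aco017254 has a Myb-like DNA-binding domain. It had 18.9, 10.9 and 10.3 CPM in ethephon and 0, 1.04 and 1.65 CPM in water at 6 h, against 4.33 to 15.3 CPM in later water. On day 3 the leaf base libraries were at 29.2, 29.8 and 28.3 CPM in ethephon and 6.14, 6.01 and 8.38 CPM in water, a log2 fold change of 2.06 (SE 0.19, adjusted p = 3.01e-06). On the same day the apex was at 7.88, 8.81 and 7.07 CPM in ethephon and 0.66, 0.473 and 1.23 CPM in water, a log2 fold change of 3.35 (SE 0.42, adjusted p = 1.7e-06). It was therefore higher in ethephon in both tissues on day 3, with no overlap of libraries.

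Aco011880 encodes a NAC-domain protein, a plant family of transcription factors. At 6 h it had 4.09, 3.49 and 4.21 CPM in ethephon and 1.73, 0 and 0 CPM in water, and the call was lost without water replicate 3 (2.16). It was 1 of the 2 genes up-regulated at the leaf base on day 1, with 9.95, 6.09 and 6.89 CPM in ethephon and 2.77, 3.45 and 1.55 CPM in water (log2 fold change 1.56, SE 0.35, adjusted p = 0.02). The day 1 call was lost without water replicate 3 (1.34) or ethephon replicate 1 (1.31). It was also up-regulated at the leaf base on day 4, by 2.54 (SE 0.64, adjusted p = 0.0275). Aco014592, a CONSTANS-like zinc finger gene of a family tied to photoperiodic flowering in Arabidopsis, had 1.92, 0.822 and 1.25 CPM in ethephon and 0, 0 and 0.3 CPM in water at 6 h, a call lost on leaving out any of 3 single libraries (2.59 to 2.64), and passed no later test. Aco000682, related to the light-signalling factor FAR1 of Arabidopsis, had 4.35, 3.9 and 4.06 CPM in ethephon and 0.693, 0.695 and 0.15 CPM in water, at least 3.94-fold higher in ethephon.

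The genes tied to chromatin and growth were Aco007850 and Aco003157, which belong to the histone and HAP3/NF-YB group of the study, Aco009479, a growth regulatory factor, and Aco004895, a SWIB/MDM2-domain protein of the kind found in chromatin remodelling complexes. The 35 chromatin genes named in the study had 16 up-regulated and 6 down-regulated in leaf bases of 6 h, against 8.59% and 11% of all genes, with a median of 1.00. Later leaf base counts were small. On days 1 and 2, 1 each was up-regulated and 0 down-regulated (the same on the unadjusted p), against 0.748% and 0.874% of all genes on day 1 and 0.898% and 0.582% on day 2. On day 3 it was 2 and 1, against 4.03% and 3.1%, and on day 4, 5 and 1, against 1.4% and 2.23%. In day 1 apices, 13 were up-regulated and 2 down-regulated, against 7.7% and 3.63%.

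Aco007850 and Aco003157 have exon lengths of 411 each, and with reads of several positions counted, a near-identical copy could share their reads. Aco007850 had 138, 83.8 and 86.3 CPM in ethephon and 4.85, 7.3 and 17.9 CPM in water at 6 h. Aco003157 had 115, 73.7 and 69.7 CPM in ethephon and 8.32, 9.38 and 12.2 CPM in water. In both, the water libraries of 6 h were below all 12 later water libraries, which held 18.7 to 113 CPM of Aco007850 and 18.2 to 87.8 CPM of Aco003157. On day 4 at the leaf base Aco003157 had 101, 104 and 103 CPM in ethephon and 36.6, 18.2 and 47.8 CPM in water (log2 fold change 1.63, SE 0.25, adjusted p = 0.00157), and Aco007850 was up-regulated by 1.54 (SE 0.31, adjusted p = 0.0071). Both were also up-regulated at the apex, Aco003157 on days 1, 2, 5 and 6 with 296, 415 and 303 CPM in ethephon and 137, 141 and 127 CPM in water on day 2, and Aco007850 on days 6 and 8.

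Aco009479 had few counts at the leaf base, 21, 4 and 5 in ethephon and 1, 0 and 1 in water at 6 h, at least 1.37-fold higher in ethephon, and its 6 h call was lost on leaving out any of 3 single libraries (2.14 to 2.94). Growth regulatory factors support cell proliferation in young leaves of model plants. At the apex on day 3 it had 51.9, 56 and 39.9 CPM in ethephon and 6.93, 8.36 and 7.38 CPM in water, a log2 fold change of 2.67 (SE 0.20, adjusted p = 1.14e-09), and it was up-regulated there on days 2 and 6 as well. Aco004895 had 8, 2 and 3 counts in ethephon and none in water, which bounds no fold, and its call at 6 h was lost on leaving out any 1 of the 6 libraries (4.16 to 5.07). Its exons overlap those of Aco004896, and strand was not used in counting, so its reads cannot be told apart from those of that gene.

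Of the genes for hormones and transport, Aco031846 is an auxin influx transporter in the study's naming. It had 4.48, 5.96 and 7.33 CPM in ethephon and 1.04, 0.695 and 0.6 CPM in water at 6 h. On day 4 the leaf base libraries held 9.54, 17.6 and 7.54 CPM in ethephon and 1.79, 1.44 and 2.18 CPM in water (log2 fold change 2.70, SE 0.40, adjusted p = 0.0011). At the apex it was up-regulated on days 1, 2, 3 and 5, most on day 2, when it had 76.8, 120 and 82.1 CPM in ethephon and 7.36, 9.78 and 10.8 CPM in water (log2 fold change 3.35, SE 0.19, adjusted p = 1.5e-10). Its level in ethephon apices of day 2 was thus above that of every leaf base library.

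Aco007706 is a cytokinin oxidoreductase, of the enzymes that break down cytokinins. It had 7.29, 6.16 and 4.37 CPM in ethephon and 0, 0.347 and 1.35 CPM in water at 6 h. On day 1 the direction was the other way, with 0.585, 2.92 and 0.544 CPM in ethephon and 13.3, 2.88 and 3.89 CPM in water (log2 fold change -2.54, SE 0.63, adjusted p = 0.0359). The groups overlapped, and the call was lost without water replicate 1, ethephon replicate 1 or ethephon replicate 3, with log2 fold changes of -1.45, -2.12 and -2.17. At the apex on day 3 it had 26.1, 23.6 and 26.4 CPM in ethephon and 1.98, 2.68 and 0.492 CPM in water, a log2 fold change of 3.74 (SE 0.30, adjusted p = 3.42e-09). Of the 16 auxin genes named in the study, 5 were up-regulated and 3 down-regulated in leaf bases of 6 h, and of the 9 cytokinin genes, 2 and 2, against 8.59% and 11% of all genes. The up-regulated ones include Aco031846 and Aco007706, which were chosen for this rise.

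Other genes have a named enzyme or receptor product. Aco000775, a receptor-like kinase, had 15.4, 17.9 and 13.7 CPM in ethephon and 1.04, 1.04 and 1.2 CPM in water at 6 h, and was up-regulated at the leaf base on day 4 with 9.54, 18.7 and 13.4 CPM in ethephon and 2.59, 2.08 and 4.57 CPM in water (log2 fold change 2.21, SE 0.36, adjusted p = 0.00189). Aco000758, annotated as beta glucosidase 17, of the enzymes that release sugars and aglycones from glucosides, had 106, 101 and 196 CPM in ethephon and 27.7, 5.56 and 13.1 CPM in water at 6 h. Its direction differed by tissue later, being up-regulated at the leaf base on day 4 by 2.19 (SE 0.43, adjusted p = 0.00649) and down-regulated in apices of days 2, 3 and 6. On day 3 the apex held 938, 1089 and 1006 CPM in ethephon and 2319, 2720 and 2335 CPM in water. Aco000861, a subtilisin-like serine protease, had 5.37, 4.11 and 3.12 CPM in ethephon and 0, 0.347 and 0.15 CPM in water, at least 4.03-fold higher in ethephon, and its exons overlap those of Aco000860. Aco010501, a RING finger protein of a class that often marks proteins for degradation, had 1.15, 1.64 and 1.4 CPM in ethephon and 0, 0 and 0.15 CPM in water at 6 h, and fell at the apex on day 6 to 3 or fewer counts per ethephon library, at least 2.57-fold lower than in water, a call lost on leaving out any of 4 of the 6 libraries (-2.44 to -1.90).

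**Figure D4:**
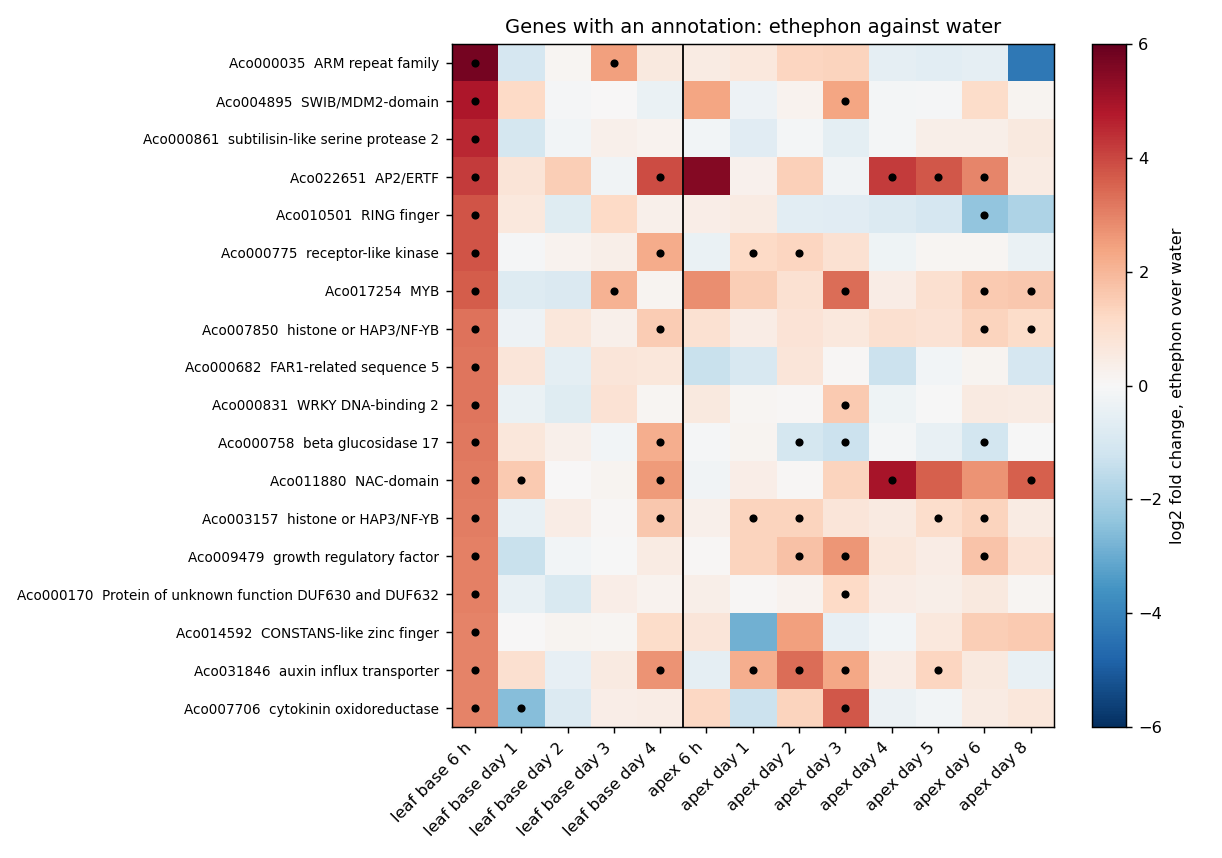
Log2 fold change of ethephon over water for genes with a known role (rows) in the 13 comparisons (columns, leaf base then apex, by time), with a dot where the gene was DE. The leaf base column of 6 h fixed the choice of genes, and dots in the other columns lie mainly at leaf base day 4 and at the apex.

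In the later leaf base comparisons, which the choice did not use, the direction of the genes varied by day. On day 1, 2 of 199 genes tested were up-regulated and 29 down-regulated, against 0.748% and 0.874% of all genes, and the median log2 fold change was -0.61. On day 2, 0 of 200 were up-regulated and 22 down-regulated, against 0.898% and 0.582% of all genes, with a median of -0.42. Down-regulation was thus above the background share on both days. The count of 0 on day 2 is edgeR's. On its unadjusted p 8 genes were up-regulated, DESeq2 gave 1, and a fit with lane gave 2. The day 1 count of 29 became 18 without water replicate 1 and 44 without water replicate 2, and the day 2 count of 22 became 14 without water replicate 2, 14 without ethephon replicate 1 and 10 without ethephon replicate 3. A filter of 1 CPM in 3 libraries gave 18 down-regulated genes on day 1, and a fit with lane gave 52.

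On day 1 the largest falls that passed the test were in Aco007706, Aco003960 and Aco024269. Aco003960 had 5.85, 6.09 and 2.18 CPM in ethephon and 36, 11.8 and 28.2 CPM in water (log2 fold change -2.46, SE 0.38, adjusted p = 0.0021). Aco024269 had 2.78, 3.41 and 1.27 CPM in ethephon and 15.6, 8.92 and 15 CPM in water (log2 fold change -2.44, SE 0.34, adjusted p = 0.00139). Neither gene's groups overlapped. Aco011296, first in rank at 6 h, was 1 of the 2 that rose on day 1, with 2.63, 6.58 and 1.09 CPM in ethephon and at most 3 counts in any water library, at least 3.98-fold higher in ethephon. Its call was lost with DESeq2, with lane as a term, and without water replicate 3, ethephon replicate 1 or ethephon replicate 2 (3.33, 3.24 and 2.29). Aco009306, among the most abundant at 6 h, fell by 1.33 on the log2 scale (SE 0.30, adjusted p = 0.0214), with 88.2, 73.1 and 41 CPM in ethephon and 243, 84.3 and 179 CPM in water, so that 1 library of each group overlapped.

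On day 2 the largest falls were in Aco010992, Aco010730 and Aco003960. Aco010730 had 12.6, 12.4 and 9.02 CPM in ethephon and 56.6, 70.6 and 47 CPM in water (log2 fold change -2.39, SE 0.22, adjusted p = 0.000541). Aco003960 had 7.24, 10.8 and 9.61 CPM in ethephon and 40.6, 45.9 and 48.1 CPM in water (log2 fold change -2.31, SE 0.21, adjusted p = 0.000513). Aco010992 had 2.69, 2.7 and 1.77 CPM in ethephon and 11.7, 15.9 and 14.3 CPM in water. All 3 were several times lower in each ethephon library than in any water library of that day.

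Day 3 was mixed, with 18 of 200 up-regulated and 33 down-regulated, against 4.03% and 3.1% of all genes, and a median of -0.01. Down-regulated genes included Aco000849, annotated only as a hypothetical protein, Aco004943 and Aco001695. Aco004943 had 0.973, 0.896 and 0.404 CPM in ethephon and 3.07, 4.61 and 7.39 CPM in water (log2 fold change -2.70, SE 0.48, adjusted p = 0.000977). Aco000849 was at least 3.48-fold lower in ethephon and Aco001695 at least 1.81-fold lower, a call that was lost without any 1 of 5 of its 6 libraries (-2.47 to -2.09). Aco008487, abundant at 6 h, had 11.7, 22.8 and 11.7 CPM in ethephon and 64.3, 61.6 and 111 CPM in water on day 3 (log2 fold change -2.37, SE 0.26, adjusted p = 1.59e-05). Up-regulated genes included Aco006758, Aco017364 and Aco000035, an ARM repeat protein. Aco017364 had 37.5, 19 and 15.2 CPM in ethephon and 4.3, 3.21 and 2.96 CPM in water (log2 fold change 2.74, SE 0.33, adjusted p = 3.22e-05). Aco006758 had 3.7, 6.63 and 1.41 CPM in ethephon and 0.767, 0.279 and 0.657 CPM in water, and its call was lost without ethephon replicate 2 (2.13).

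Some genes fell on more than 1 of days 1 to 3. In all, 47 genes were down-regulated on at least 1 of these days (23.5%, against 3.9% of the 22449 genes tested at leaf base 6 h, the base of all shares over several comparisons). On days 1 and 2 both, 14 were (7%, against 0.196%), on days 1 and 3, 20 (10%, against 0.294%), on days 2 and 3, 16 (8%, against 0.245%), and on all 3 days, 13 (6.5%, against 0.151%). The 13 were Aco001804, Aco003960, Aco004755, Aco006207, Aco007805, Aco008224, Aco008983, Aco009187, Aco011832, Aco013104, Aco016988, Aco017278 and Aco024269, named after their values were seen, and none has a function in the sources used here. Each comparison has its own ethephon and water libraries. Of the 47 genes, 16 were up-regulated and 8 down-regulated in at least 1 later apex comparison, or 8% and 4% of the 200, against 1.35% and 1.9% of all genes. Over all genes, 876 were down-regulated on at least 1 of these leaf base days, with 303 of them up-regulated and 427 down-regulated at the apex. Among genes that fell, apex rises were thus near background and apex falls below it, and the joint shares follow the larger share of falls.

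On day 4 the direction was that of 6 h, with 31 of 199 up-regulated and 1 down-regulated, against 1.4% and 2.23% of all genes, and a median of 0.59. The up-regulated count rested on single libraries, being 6 without water replicate 2, 18 without ethephon replicate 2 and 50 without water replicate 3. Water replicate 2 of day 4 was low in several of the genes named here, such as Aco003157 with 18.2 CPM beside 36.6 and 47.8 CPM. The down-regulated gene was Aco017364, with 10.2, 4.58 and 7.21 CPM in ethephon and 36.2, 13.6 and 27.4 CPM in water (log2 fold change -1.76, SE 0.36, adjusted p = 0.00822), which was not called without ethephon replicate 2 (-1.52).

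The largest rises of day 4 were in Aco029536, Aco022651 and Aco008177. Aco008177 had 46.1, 50.4 and 34.7 CPM in ethephon and 7.36, 4.79 and 6.75 CPM in water (log2 fold change 2.84, SE 0.23, adjusted p = 3.38e-05). Aco029536 had 4.13, 3.88 and 2.62 CPM in ethephon and 0.199, 0 and 0.397 CPM in water, at least 5.94-fold higher in ethephon, and was not called without water replicate 2 (3.46). Of the 31 genes, 0 had been down-regulated on day 1, 0 on day 3, and 1 was also up-regulated on day 3. Of the 31, 20 were also up-regulated at the apex in at least 1 later comparison, or 10% of the 200, against 0.904% of all genes. Over all genes, 309 were up-regulated at the leaf base on day 4, and 203 were up-regulated both there and at the apex. Among genes that rose on day 4, overlap with the apex was thus near background, and the joint share follows that of day 4. The treatments shared no lane on days 3 and 4, so lane and treatment cannot be told apart there.

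At the apex, where the genes were not called at 6 h by choice, up-regulated genes outnumbered down-regulated ones in all 7 later comparisons. Over all genes tested this also held on each of these days except day 8. On day 1, 18 of 198 were up-regulated and 13 down-regulated, against 7.7% and 3.63% of all genes, and on day 2, 31 and 12 of 198, against 9.76% and 5.34%. On day 3, 55 of 197 were up-regulated and 6 down-regulated, against 7.2% and 7.19% of all genes, and the median log2 fold change was 0.57. On day 4, 12 and 8 of 199 were up- and down-regulated, against 3.53% and 2.12%, and on day 5, 15 and 5 of 199, against 3.83% and 1.23%. On day 6, 32 and 7 of 200 were up- and down-regulated, against 3.46% and 2.59%, and on day 8, 26 and 8 of 199, against 2.82% and 4.73%. The share up-regulated was farthest above background on days 3, 6 and 8 and nearest to it on day 1. On day 1 the down-regulated share (6.57%, against 3.63%) was farther above background than the up-regulated one (9.09%, against 7.7%).

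**Figure D5:**
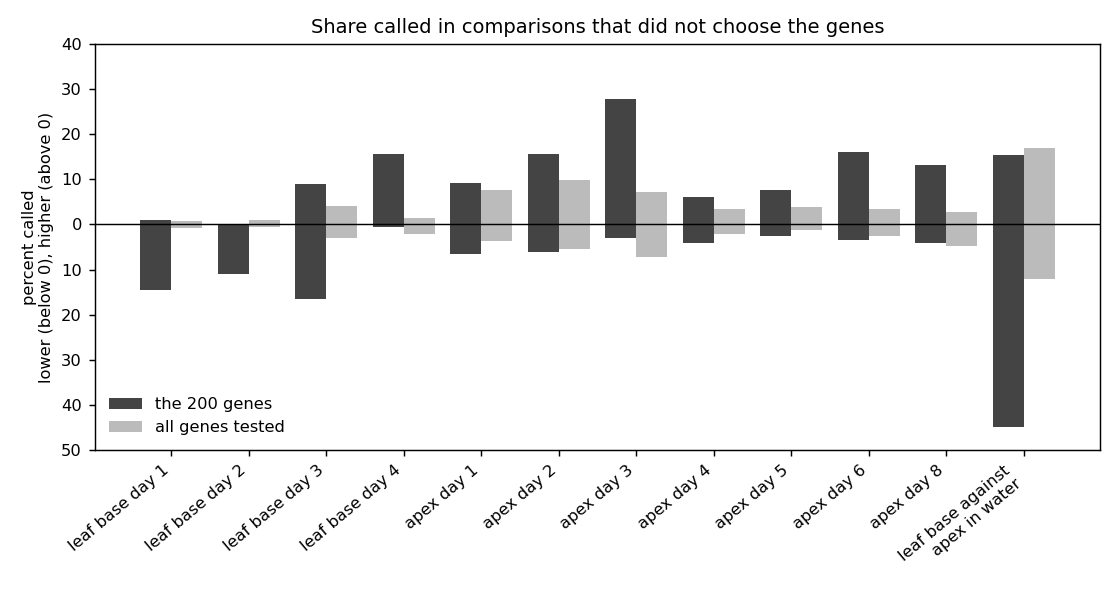
Share of the 200 genes tested that were up-regulated or down-regulated in ethephon in each later comparison (leaf base days 1 to 4, apex days 1 to 8), beside the share of all genes tested. Down-regulated genes led on leaf base days 1 to 3, and up-regulated genes on leaf base day 4 and on every apex day shown. At the apex the up-regulated share was farthest above that of all genes on days 3, 6 and 8.

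Over the 7 later apex samplings, 87 genes were up-regulated at least once (43.5%, against 19.7% of all genes) and 29 at least 3 times (14.5%, against 4.08%). Down-regulated at least once were 33 (16.5%, against 16.8%), a share close to the background, and 6 moved in both directions (3%, against 3.72%). Aco012031 was up-regulated in all 7. On day 6 it had 154, 233 and 202 CPM in ethephon and 37.4, 43.7 and 30.9 CPM in water (log2 fold change 2.38, SE 0.16, adjusted p = 7.88e-08), and on day 3, where its change was larger, it rose by 2.74 (SE 0.15, adjusted p = 1.26e-11). Aco006758 was up-regulated from day 2 on, from near silence in water apices. It was at least 3.72-fold higher in ethephon on day 2 and at least 9.30-fold on day 3. The bound was 12.8-fold on day 4, then 8.15-fold and 13.7-fold, and on day 8 it had 18.5, 19.9 and 12.2 CPM in ethephon and 0, 0 and 0.073 CPM in water. At the leaf base it was also up-regulated on days 3 and 4.

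Other large apex rises were in Aco015390, Aco017249, Aco031846, Aco020647, Aco031773, Aco011880, Aco001053 and Aco026016. Aco015390 had 15.5, 16.8 and 19.2 CPM in ethephon and 1.91, 1.96 and 1.11 CPM in water on day 2 (log2 fold change 3.37, SE 0.30, adjusted p = 3.55e-08), but its exons overlap those of Aco015391. Aco017249 rose by 2.41 on day 1 (SE 0.66, adjusted p = 0.00628) and Aco026016 by 2.91 on day 8 (SE 0.51, adjusted p = 1.66e-05). For genes at 3 or fewer counts in each water library the fold was bounded only, at 2.74 for Aco031773 on day 3, 2.85 for Aco001053 on day 5, 1.06 for Aco020647 on day 3, and 1.18 on day 4 and 2.48 on day 8 for Aco011880. The rises of Aco001053, Aco020647 and Aco011880 were lost with DESeq2 and on leaving out any of 4, 3, 2 (day 4) and 4 (day 8) single libraries, and that of Aco017249 without ethephon replicate 3 (1.81). Aco012596 was up-regulated on day 3, with 442, 478 and 449 CPM in ethephon and 144, 211 and 225 CPM in water (log2 fold change 1.22, SE 0.16, adjusted p = 4.57e-06).

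Among the genes that fell at the apex, Aco018991 was down-regulated in 6 of the 7 later comparisons, all but day 6. On day 8 it had 6.01, 10.9 and 8.29 CPM in ethephon and 31.4, 38.9 and 35.4 CPM in water (log2 fold change -2.08, SE 0.22, adjusted p = 2.16e-10). Aco017364 was up-regulated on day 1 by 1.41 (SE 0.17, adjusted p = 7.35e-07) but down-regulated later, on days 3, 6 and also 8, with 0.985, 1.55 and 3.2 CPM in ethephon and 75.4, 91.5 and 81.5 CPM in water on day 3 (log2 fold change -5.28, SE 0.25, adjusted p = 4.4e-12). On that day its leaf base change was in the other direction. Aco013499 had 33.9, 26.3 and 36 CPM in ethephon and 89.3, 83.5 and 77.7 CPM in water on day 4 (log2 fold change -1.37, SE 0.11, adjusted p = 2.32e-11).

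Smaller genes also fell at the apex. Aco028691 fell by 1.68 on day 1 (SE 0.35, adjusted p = 0.000502), Aco030222 by 1.44 on day 2 (SE 0.29, adjusted p = 0.000413), and Aco019080 by 1.56 on day 4 (SE 0.38, adjusted p = 0.00176). Aco019080 was also down-regulated on days 3 and 6, and on day 8 it was at least 1.05-fold lower, with 1 count in all in ethephon and 34 in water, a call lost with DESeq2 and without ethephon replicate 1 (-2.80). The apex libraries of day 8 held 1418697 to 1930038 counts in ethephon and 7275321 to 13180667 in water, so raw counts of that day also differ by depth. Aco010043 fell by 1.51 on day 5 (SE 0.52, adjusted p = 0.0493) and by 2.47 on day 6 (SE 0.45, adjusted p = 0.000684), and Aco011296 fell by 1.83 on day 5 (SE 0.55, adjusted p = 0.0227). With 3 or fewer counts in each ethephon library, Aco019237 was at least 5.13-fold lower on day 1, Aco006356 at least 1.96-fold lower on day 1, Aco011492 at least 1.45-fold lower on day 2 and Aco013359 at least 2.27-fold lower on day 3. Aco019237 also overlaps another gene. The calls of Aco006356 on day 1 (-3.07 to -2.48), Aco011492 on day 2 (-5.09 and -3.43) and Aco010043 (-1.67 to -0.89) and Aco011296 (-2.06 to -1.45) on day 5 were each lost on leaving out any of 4, 2, 3 and 4 single libraries. No apex comparison had a lane shared between treatments, so lane and treatment cannot be told apart there, and the down-regulated counts of days 5, 6 and 8 were small enough that single libraries moved them by over 1.5 times (2 without water replicate 1 and 3 without water replicate 2 or ethephon replicate 1 on day 5, 4 without water replicate 1, water replicate 2 or ethephon replicate 3 and 3 without ethephon replicate 2 on day 6, and 5 without ethephon replicate 1 on day 8).

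The ethephon effects were also compared directly, by edgeR interaction tests added after the data were seen. Between leaf base days 4 and 1 they differed in 45 genes, all more positive on day 4, against 2.32% of all genes above 0 and 3.25% below. Leaf base minus apex differed in 1 gene above 0 and 39 below on day 1 (3.17% and 6.63% of all genes), in 5 and 44 on day 2 (3.7% and 6.83%), in 4 and 62 on day 3 (5.41% and 4.61%), and in 35 and 5 on day 4 (3.03% and 4.35%). In the leaf base the effect was thus mostly the lower one on days 1 to 3 and the higher one on day 4. Examples were Aco010992, with a difference of -4.24 on day 2, and Aco029536, with a difference of 3.91 on day 4. The day 4 to day 1 count of 45 became 26 or 68 without water replicate 2 or 3 of day 4, 29 or 27 without ethephon replicate 1 or 2 of day 4, and 25 without water replicate 1 of day 1. Each of these tests has a term, apex or leaf base day 4, whose treatments had no lane in common. The differences therefore cannot be told apart from lane.

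Across both tissues, 95 genes (47.5%) were DE in at least 1 of the 4 later leaf base comparisons and 114 (57%) in at least 1 of the 7 later apex comparisons, against 10.9% and 32.8% of all genes. Both held for 61 (30.5%, against 7.27%) and neither for 52 (26%, against 63.6%). Of the 95 genes DE later at the leaf base, 61 were also DE at the apex, near the 1631 of 2443 over all genes. The choice had kept out only genes called at the apex at 6 h.

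In water alone, the genes were more often higher at the apex. Over the 12 leaf base and 12 apex libraries of days 1 to 4, with sampling as a term, 31 of 200 were higher and 90 lower in the leaf base, against 16.9% and 12.1% of all genes, and the median log2 difference was -0.94, against 0.05 over all genes. In 39 genes the 12 libraries of each tissue did not overlap, 35 of them lower in the leaf base, against 12.8% of all genes without overlap in either direction. Tissue and lane cannot be told apart here, since no lane held both.

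Among the genes lower in the leaf base, the largest differences were in Aco013345, Aco000758 and Aco005253. Aco013345 had 2.08, 6.53 and 15.4 CPM in the leaf base (lowest, median and highest) and 139, 304 and 500 CPM at the apex, a log2 difference of -5.56 (SE 0.27, adjusted p = 9.95e-16). Aco000758, the beta glucosidase, had 5.77, 71.4 and 230 CPM in the leaf base and 1122, 2415 and 4062 CPM at the apex (-5.13, SE 0.31, adjusted p = 9.2e-14). Its 6 h ethephon level in the leaf base, 101 to 196 CPM, was thus still far below any apex library. Aco005253 had 0.958, 4.56 and 9.36 CPM in the leaf base and 58.1, 92.8 and 168 CPM at the apex.

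Genes higher in the leaf base included Aco000831, with 39.4, 52.4 and 72.3 CPM in the leaf base and 7.58, 12.6 and 29.1 CPM at the apex (log2 difference 1.92, SE 0.14, adjusted p = 4.06e-12), and Aco017254, higher by 2.98 (SE 0.27, adjusted p = 3.56e-10). Aco017368 was at least 8.28-fold higher in the leaf base, and its leaf base libraries were spread from 0.319 to 34.4 CPM. Aco026183 and Aco004337 had 3 or fewer counts in each apex library, and were at least 1.47-fold and 1.05-fold higher in the leaf base. Of the chromatin and hormone genes above, Aco003157, Aco007850, Aco009479 and Aco031846 were lower in the leaf base, and Aco007706 higher.

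The files also record the length, exon entries, overlap and position of the genes. Their median exon length was 1114.5, against 1395 over all genes tested, and they had a median of 3 exon entries, against 5. Of the 200, 13.5% had 1 exon entry, against 11.3% of all genes, and 7.5% overlapped another gene, 15 in number, against 9.84%. They lay on all 25 linkage groups (191 genes) and on other scaffolds (9 genes), with the most, 17 or 8.5%, on linkage group 1, which holds 6.88% of all genes tested. In 8 cases 2 of the genes were next to each other, among them Aco002497 with Aco002498, Aco012596 with Aco012597, Aco009478 with Aco009479 and Aco000034, a hypothetical protein, with Aco000035. How often genes taken from all those tested would be neighbours was not tested.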

How the data were processed

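The data were 78 mRNA libraries, and their tissue, treatment, sampling and replicate were taken from the labels. The authors trimmed reads with Trimmomatic 0.36 after FastQC 0.10.1, aligned them with HISAT2 2.0.5 to Acomosus_321_v3, and deposited counts per gene from featureCounts 1.6.0, as the submitters' notes and file headers state. Pairs were counted on exons by gene name, without strand and with reads of several positions, so that overlapping or near-identical genes can hold each other's reads. Fold bounds cover counting error only.

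Each comparison of 3 ethephon with 3 water libraries used the quasi-likelihood test of edgeR 4.0.16 (R 4.3.3) after TMM scaling, on genes with 1 or more counts, adjusted by Benjamini-Hochberg over all genes tested. A gene was called at an adjusted p under 0.05 and a 2-fold change. The tissue comparison used 24 water libraries with sampling as a term. Levels are CPM, and log2 CPM with a prior count of 0.25 and TMM factors over all 78 libraries. Against a group with at most 3 counts in each library, the fold was bounded by a floor of 3 counts per library. The calling steps were also run on simulated data, but no outcome is given here. That run is not offered as a check of calls against a group with at most 3 counts in each library. An exact permutation test of 3 against 3 cannot give a p under 0.1.

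The 200 genes, the lists and the tests were chosen with earlier results of these data known. 1 gene was left out by the rule, and that gene and 1 with a function are not reported here. Genes were named by a rule: the 12 largest folds and the 5 highest levels at 6 h, the 3 largest called rises and falls of each later comparison, and the genes with a function, up to 4 per keyword list of the annotation copy. Alternatives were DESeq2 1.42.0, RLE factors, library size only, a filter of 1 CPM in 3 libraries, a log2 fold change of 2, a replicate block, lane, no apex condition, a prior count of 2 and each library left out. Interactions and the fit without overlapping genes were chosen after seeing the data. Lists of genes come from the study's text and from 858 annotated genes in hand. Replicates of a group were compared over 78 pairs, and the lowest chi-square per gene was 1.56, so none differed by as little as sampling noise.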

Additional observations from a re-analysis of the deposited data

Results flagged for a closer look

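The ethephon effect of the 200 genes differed between leaf base samplings and between tissues, by edgeR interaction tests chosen after seeing the data, with Benjamini-Hochberg adjustment over all genes. Between leaf base days 4 and 1 it differed in 45 genes, 45 with a more positive change on day 4 and 0 with a more negative one (90 and 3 on the unadjusted p), against 2.32% and 3.25% of all genes. Among the genes that passed the test, the difference was largest in Aco012937 (3.72, SE 1.06, adjusted p = 0.0355). This count became 26 without water replicate 2 of day 4, 68 without water replicate 3 of day 4, 29 and 27 without ethephon replicates 1 and 2 of day 4, and 25 without water replicate 1 of day 1. Ethephon and water libraries of day 4 had no lane in common, so this difference cannot be told apart from lane.

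Between leaf base and apex the effect differed in 40 genes on day 1, 1 above 0 and 39 below, against 3.17% and 6.63% of all genes, and in 49 on day 2, 5 above 0 and 44 below, against 3.7% and 6.83%. On day 3 it differed in 66 genes, 4 above 0 and 62 below, against 5.41% and 4.61%, and on day 4 in 40, 35 above 0 and 5 below, against 3.03% and 4.35%. Below 0, the change was the lower one in the leaf base. The largest single difference was in Aco017364 on day 3, 8.03 higher at the leaf base (SE 0.45, adjusted p = 3.56e-11). These differences cannot be told apart from lane, since no apex comparison had a lane shared between treatments. The leaf base terms of day 3 and of day 4 lacked a shared lane too. The apex term of each test shares its libraries with the apex comparisons above.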

How the results depend on the processing

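Of the 200 genes, 177 were still among the 200 chosen with DESeq2, 200 with RLE factors, 154 with a filter of 1 CPM in 3 libraries, 155 with lane as a term, 185 with no apex condition, and 127 to 197 with 1 library left out. Still DE and higher at 6 h were 178 with DESeq2, 154 with the filter, 163 with lane and 165 to 189 with 1 library left out. On leaf base day 1, up-regulated genes (2) became 1 with DESeq2, with the filter, with lane and at a log2 fold change of 2, and down-regulated genes (29) became 18 with the filter, 52 with lane and 11 at a log2 fold change of 2. On day 2, up-regulated genes (0) became 1 with DESeq2 and 2 with lane. With DESeq2, down-regulated genes numbered 2 at the apex on day 5 and 4 on day 8. The causes were not tested.

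With a log2 fold change of at least 2, fewer genes pass by construction. Down-regulated genes were then 4 on leaf base day 2, up- and down-regulated genes 6 and 11 on day 3 and 14 and 0 on day 4, and at the apex 5 and 2 on day 1, 8 and 1 on day 2, 33 and 2 on day 3, 3 and 0 on day 4, 4 and 0 on day 5, 4 and 3 on day 6, and 5 and 4 on day 8. In water, 18 were then higher and 29 lower in the leaf base than at the apex. With a prior count of 2 the median shift of water at 6 h from later water was -2.05.

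With 1 library left out, up- and down-regulated genes at the leaf base were 0 to 3 and 18 to 44 on day 1, 0 to 2 and 10 to 24 on day 2, 15 to 17 and 24 to 35 on day 3, and 6 to 50 and 0 to 1 on day 4. At the apex they were 17 to 23 and 10 to 12 on day 1, 23 to 33 and 11 to 13 on day 2, 52 to 59 and 5 to 6 on day 3, 9 to 12 and 6 to 12 on day 4, 11 to 17 and 2 to 6 on day 5, 23 to 41 and 3 to 6 on day 6, and 21 to 31 and 5 to 9 on day 8. In water 26 to 30 were higher and 79 to 101 lower in the leaf base. Genes with water of 6 h below later water were 112 to 125, those with ethephon above it 22 to 31, the median shift -3.30 to -2.62, and genes that differed between leaf base days 4 and 1, 25 to 68.

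Ethephon and water libraries of the same replicate number did not deviate together, since over 39 pairs the correlation of deviations ran from -0.149 to 0.0819. They were treated as unpaired. Such values cannot tell whether the numbers follow the field replications, which may differ little. With the replicate block, 174 of the 200 were still chosen and 180 still DE, the down-regulated count of leaf base day 2 was 14, and 8 values of genes given by name lost their call. Of 993 values of such genes under alternatives, 889 kept direction and call, 104 lost the call and 0 reversed. Where each library of a group held 3 or fewer counts, the depth allowed only a bound on the fold.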
